A study of Mus musculus with 9 samples.

Results

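The open chromatin of wild-type naive CD4+ T cells was described from the 3 WT libraries of an ATAC-seq series of 9 libraries in 3 genotypes. ATAC-seq measures how often a transposase inserts sequencing adapters into a stretch of DNA, and insertions gather where nucleosomes are absent. The members were the libraries labelled WT, called WT 1, WT 2 and WT 3 below, and the 115727 peaks of the deposited table were ranked by their mean level in these 3. No other genotype was compared. The cells were untreated, came from C57BL/6 mice and were isolated with a naive CD4+ T cell kit, and 50000 cells per library were tagmented for 30 minutes and read as 75-bp pairs. The labels give neither age nor sex and do not say whether the 3 libraries came from separate animals, so the spread between them may be technical.

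Naive CD4+ T cells circulate between blood and lymph nodes until their receptor meets an antigen. They are kept quiescent by transcription factors such as TCF-1 (gene Tcf7), LEF1, BACH2 and FOXP1, and they survive on interleukin 7, whose receptor chain is encoded by Il7r. Promoters are the stretches around transcription starts, and in most cell types those rich in CpG are open whether or not the gene is strongly transcribed. Distal sites, such as enhancers in introns and between genes, differ more between cell types.

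Levels are in CPM, the reads in a peak scaled so that all listed peaks of a library sum to the same total. In bulk cells, fewer open cells and less signal per cell cannot be told apart. The 3 libraries held 1634247, 1284426 and 1550677 reads in peaks, so 1 read was worth 0.612, 0.779 and 0.645 CPM. A peak without reads could still have up to 3 reads, which is 1.84, 2.34 and 1.93 CPM. That limit covers counting error only, since PCR can copy 1 molecule into several reads. Depth was low for the number of peaks, with a median of 5, 4 and 6 reads per peak, so single peaks of low level could not be ordered. Over peaks with at least 10 reads in a pair of libraries, WT 1 and WT 2 differed by less than sampling noise (chi-square per degree of freedom 0.784), while WT 3 differed from them by slightly more (1.05 and 1.02). A value under 1 leaves it uncertain that the smallest step of the CPM values is a single read: if it stands for more, the read counts given here are counts of steps and the 3-read limits are 3 steps. WT 1 and WT 2 were kept as separate libraries because they differed strongly in 1 interval of chromosome 14, described below.

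Promoter sequences spanned the range of levels, and the following 6 were chosen to show it: the highest promoter and the third, a ribosomal protein gene below the median, the interleukin 7 receptor gene, a B cell gene and a liver gene without a listed peak. Each is the 250 bases before the transcription start, 5′ to 3′, from RefSeq on build GRCm38.p6. Capitals mark matches, on either strand, to the 14 motifs listed with the sequence results.
Cdk6: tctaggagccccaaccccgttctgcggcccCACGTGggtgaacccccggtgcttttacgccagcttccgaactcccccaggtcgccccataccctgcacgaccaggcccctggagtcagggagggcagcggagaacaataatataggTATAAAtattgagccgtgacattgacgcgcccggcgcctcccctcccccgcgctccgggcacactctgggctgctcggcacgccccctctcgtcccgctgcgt
Fzd5: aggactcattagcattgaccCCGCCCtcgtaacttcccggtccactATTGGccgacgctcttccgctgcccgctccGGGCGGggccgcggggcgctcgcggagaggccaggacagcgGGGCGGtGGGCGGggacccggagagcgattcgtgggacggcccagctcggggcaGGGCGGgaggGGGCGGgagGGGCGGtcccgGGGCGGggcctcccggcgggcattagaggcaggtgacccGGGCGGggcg
Rps18: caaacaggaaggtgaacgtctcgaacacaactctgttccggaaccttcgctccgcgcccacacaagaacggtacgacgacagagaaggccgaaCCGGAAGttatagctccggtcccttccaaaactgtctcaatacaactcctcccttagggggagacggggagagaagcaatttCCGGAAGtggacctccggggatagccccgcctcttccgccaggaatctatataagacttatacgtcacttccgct
Il7r: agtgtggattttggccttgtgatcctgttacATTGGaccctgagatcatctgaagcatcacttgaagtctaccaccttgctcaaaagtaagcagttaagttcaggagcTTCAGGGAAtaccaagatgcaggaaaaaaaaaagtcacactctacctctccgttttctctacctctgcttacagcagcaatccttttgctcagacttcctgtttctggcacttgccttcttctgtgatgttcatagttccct
Cd79a: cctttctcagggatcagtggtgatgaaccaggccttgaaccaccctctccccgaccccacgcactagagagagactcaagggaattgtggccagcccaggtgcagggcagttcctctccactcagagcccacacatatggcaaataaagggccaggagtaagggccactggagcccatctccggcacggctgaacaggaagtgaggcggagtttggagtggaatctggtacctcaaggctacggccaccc
Alb: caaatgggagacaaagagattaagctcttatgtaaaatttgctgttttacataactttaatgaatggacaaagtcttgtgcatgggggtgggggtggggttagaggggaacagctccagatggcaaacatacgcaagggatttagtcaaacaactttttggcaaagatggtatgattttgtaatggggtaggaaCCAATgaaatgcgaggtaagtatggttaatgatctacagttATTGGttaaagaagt
The windows lie at chr5:3343643-3343892 (plus strand) for Cdk6, chr1:64737751-64738000 (minus) for Fzd5 and chr17:33955666-33955915 (minus) for Rps18. Those of Il7r, Cd79a and Alb lie at chr15:9529877-9530126 (minus), chr7:24897247-24897496 (plus) and chr5:90460620-90460869 (plus). The Fzd5 window held 9 matches to the GC box, and its 32 CpG were the most of the 6. The Rps18 window held 2 ETS matches. The Cdk6 window held 22 CpG with 1 TATA box and 1 E-box, and the Il7r window held 1 CpG with a STAT and a CCAAT match. The peaks are placed on mm9, so these coordinates must not be set against those of the peaks given below.

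Promoter peaks, which the table annotates as TSS, made up 12.6% of the peaks (14608) but held 36.4%, 35.6% and 32.3% of the reads in WT 1, WT 2 and WT 3 (34.7% ± 2.17, SD, n = 3). Intergenic peaks were the most numerous (41627, 36.0%) and held 28.7% ± 0.83 of the reads. Intron peaks (35880, 31.0%) held 20.5% ± 0.912. The median promoter peak had 24.5, 23.4 and 21.3 CPM in the 3 libraries, and the median intergenic peak had 3.06, 3.11 and 3.87 CPM. The ratio of these medians was 8.00, 7.50 and 5.50 (7.00 ± 1.32). WT 3 had the lowest promoter share and the lowest ratio. Per kilobase of peak width the ratio was 2.90, 2.57 and 2.04 (2.50 ± 0.433). With 3 libraries, exact sign flips cannot go below p = 0.25, so no test is given.

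Width separated the classes as well. Promoter peaks were wide, with a median of 1064 bp against 417 bp for intergenic and 380 bp for intron peaks, and CPM rose with width over all peaks (Spearman's rho 0.849, across peaks, which share their libraries and are not replicates). A peak's width is itself drawn from the reads by the peak caller, so peaks matched on width are in part matched on level, and near equality at 1 width is partly built in. Among peaks of 1000 to 1500 bp, the median promoter peak had 29.4, 28.8 and 25.8 CPM and the median intergenic peak 26.9, 27.2 and 26.4 CPM. The ratio at that width was 1.04 ± 0.0593, and in WT 3 the promoter median lay below the intergenic one. Among peaks of 1500 to 2000 bp the medians of the mean level were 42.0 CPM for promoters, 43.0 for intergenic and 43.2 for intron peaks. Promoters stood higher between 600 and 800 bp, at 13.3 CPM against 11.3 and 11.2. The 7.00-fold ratio over all widths was not seen within any of these widths.

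**Figure D1:**
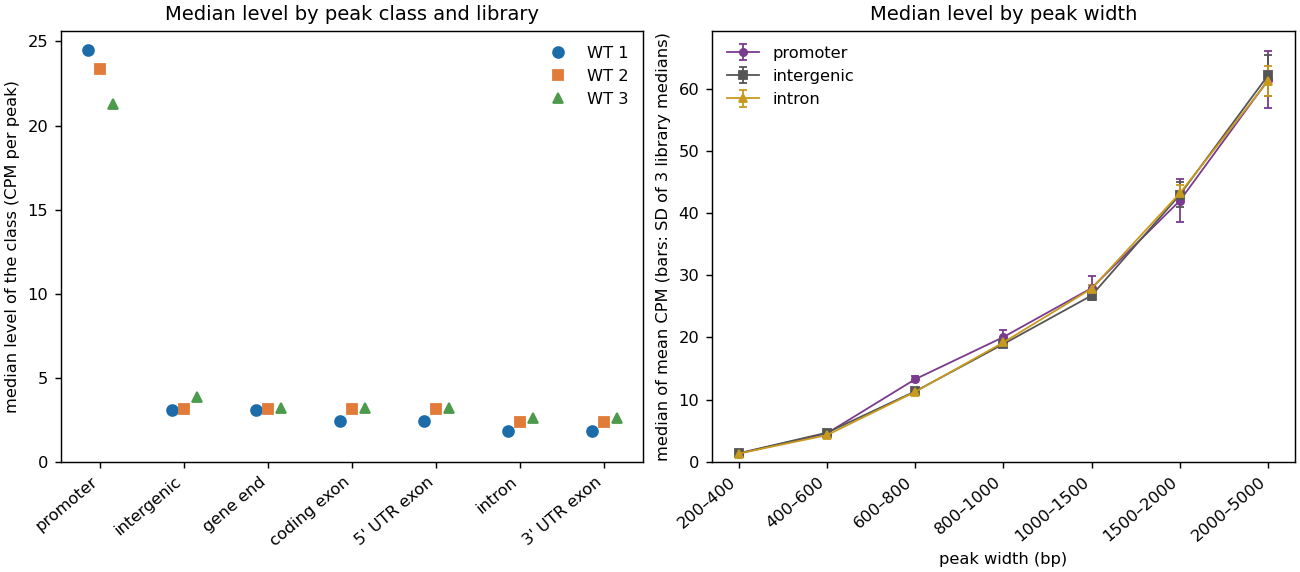
Left, the median CPM of each peak class in each WT library (1 point per library). Right, the median of mean CPM by peak width (bp) for promoter, intergenic and intron peaks, with bars for the SD of the 3 library medians. The promoter class stands alone at 21.3 to 24.5 CPM on the left, and the 3 curves nearly coincide on the right.

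Reads were concentrated in few peaks. The most open decile (11573 peaks) held 43.4%, 42.9% and 39.1% of the reads (41.8% ± 2.35). Promoters made up 58.4% of that decile and 3.98% of the lowest decile. Of the 1000 most open peaks, 744 were promoters, 109 were intergenic and 66 lay in introns. Ranked in each library alone, promoters made up 77.4%, 74.5% and 70.4% of the first 1000. The 1000 peaks were wide (median 2044 bp). Ranked by CPM per kilobase instead, promoters were 372 of the first 1000, intergenic peaks 262 and intron peaks 181, and 234 peaks were in both sets of 1000. Promoters were the largest class both ways, but with a smaller share per kilobase.

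The highest promoter peak lay over the start of Cdk6, which encodes a kinase of the G1 phase of the cell cycle (mm9 chromosome 5, 3341188 to 3344816). It had 136, 121 and 132 CPM (129.6 ± 8.08), which rested on 223, 155 and 204 reads, and its window is printed above. Tsc22d2 followed with 127, 132 and 99.3 CPM (119 ± 17.4). Fzd5, a Wnt receptor gene, had 110, 88.0 and 126 CPM (108 ± 19.0). Next came the zinc finger genes Hivep2 (106 ± 9.66) and Rreb1 (105 ± 9.12). Their ranges over the libraries overlapped, so places 2 to 5 were not separated beyond the spread. The remaining places among the 12 highest named promoters were held by Btbd11 (104), Man2a2 (98.5), Zmiz1 (96.6), N4bp2l1 (96.2), Cpeb2 (96.1), Ust (95.1) and Nipbl (94.1). Zmiz1 encodes a transcriptional coregulator, Cpeb2 a protein that binds polyadenylation elements, and Nipbl the loader of cohesin. All 12 peaks were at least 2569 bp wide. Another 2 promoter peaks ranked among them belonged to gene models without a name, and 1 of these, with 98.2 CPM, covered the listed start of Zeb1, a zinc finger repressor of T cells.

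Per kilobase of peak width the order changed. Itsn2, an endocytic scaffold gene, had 41.7 CPM per kb, from 79.5, 88.0 and 72.2 CPM. Vps54, a gene of the tethering complex that returns vesicles to the Golgi, had 41.7 CPM per kb and ranked only 1114 by CPM. Gbp9 (41.5), Ski (41.4) and Klhl17 (41.1) followed. Gbp9 belongs to a family of near-identical guanylate-binding protein genes, whose reads may have been split or shared. Cdk6 had 35.7 CPM per kb.

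The first peak outside a promoter ranked 29. It lay in intron 1 of Dock2, which encodes an activator of Rac needed for lymphocyte migration, 11.9 kb from the start, and had 92.4, 77.9 and 94.8 CPM (88.4 ± 9.17). An intergenic peak 29.5 kb from the nearest listed start, that of Coq2, had 96.7, 87.2 and 69.0 CPM (84.3 ± 14.1). A peak in intron 1 of Prex1, another Rac activator gene, had 89.3, 82.5 and 72.9 CPM (81.6 ± 8.27). Peaks near Slfn2, Fam105a and Gng2 had 80.3, 80.3 and 79.2 CPM. Slfn2 belongs to the schlafen family, is known for holding T cells quiescent and had 52.8 CPM at its own promoter. The next 5 distal peaks, in Cdc42se2 and Galm and near Cxxc5, S100a2 and Aqp11, had 74.6 to 76.5 CPM. The means of these 5 differed by less than the SD of each.

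**Figure D2:**
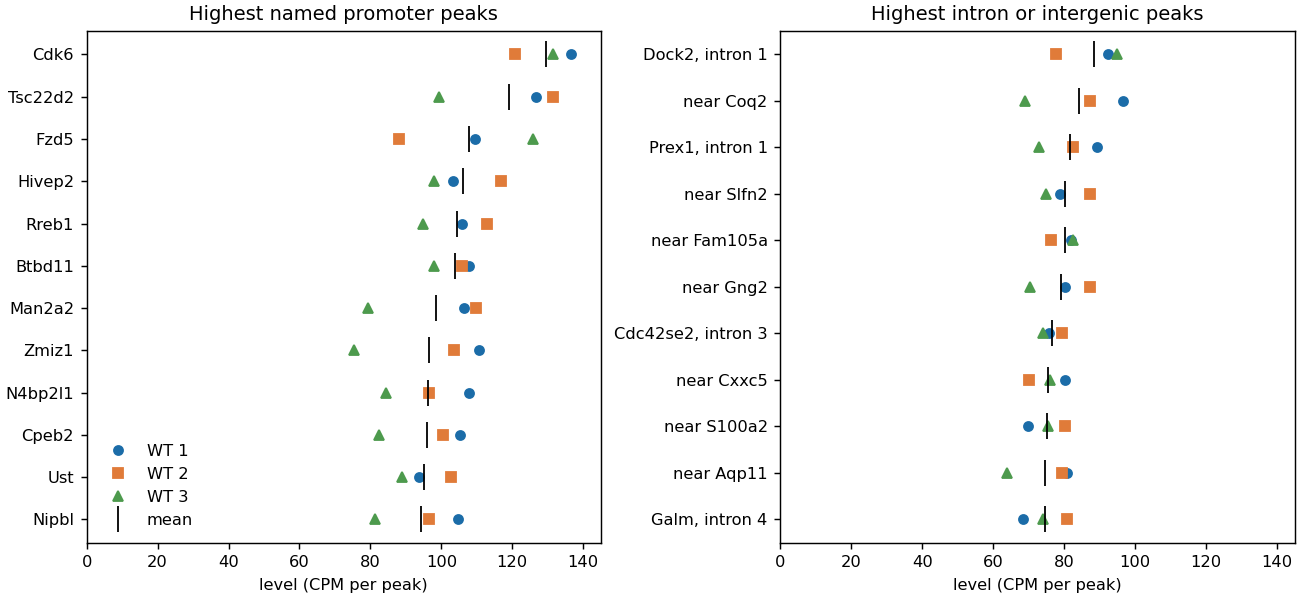
Level in CPM per peak of the 12 highest named promoter peaks (left) and of the 11 highest intron or intergenic peaks (right), 1 symbol per WT library with the mean as a bar. Cdk6 leads on the left with 129.6 CPM and the Dock2 intron peak on the right with 88.4 CPM.

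Per kilobase, distal sites had the highest values of all. A peak in intron 38 of Myo5b had 55.3 CPM per kb, the highest of the 115727 peaks, from 61.2, 81.7 and 68.4 CPM. Peaks in intron 4 of Btbd9 (51.7), intron 3 of Plcl2 (48.4) and intron 1 of Tdrp (47.4) came next. The fifth, 16.0 kb from the start of Nr4a1, an immediate early gene of T cell receptor signalling, had 46.8 CPM per kb and 30.6, 29.6 and 29.0 CPM. These 5 peaks were all above the highest promoter per kilobase, Itsn2.

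Between 5 and 500 kb from a start, distal peaks had much the same level. Intron and intergenic peaks at 2 to 5 kb from the nearest listed start had a median of 4.91 CPM. The medians were 2.69 CPM at 5 to 10 kb, 2.67 at 20 to 50 kb and 2.41 at 200 to 500 kb. Beyond 500 kb the median was 1.15 CPM, under the limit of 3 reads. The share of peaks with at least 20 CPM was 7.17% at 200 to 500 kb against 7.28% at 5 to 10 kb, and 3.35% beyond 500 kb.

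At the low end, 908 peaks (0.785%) had no read in any of the 3 libraries and 34624 (29.9%) had at most 3 reads in each. The latter share was 9.52% of promoter peaks, 30.3% of intergenic and 35.7% of intron peaks. Of 12801 genes with a promoter peak, 678 (5.30%) had at most 3 reads there in each library, and 15 had none. The peaks were listed for all 9 libraries together, and the labels do not say on which of them they were called.

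The 5 genes given as markers of naive CD4+ T cells were open, but not all at their listed start. Tcf7 had 78.9, 87.2 and 64.5 CPM at its promoter (76.9 ± 11.5, rank 99 of all peaks), and 30.6 CPM at an intron 2 peak 6.56 kb downstream. Lef1 had 20.8, 22.6 and 15.5 CPM at its promoter (19.6 ± 3.70). Its highest peak, in intron 3 at 15.2 kb, had 47.7, 52.9 and 42.6 CPM, so the ranges of the 2 did not overlap. Lef1 carried 55 peaks, 8 of them at 20 CPM or more. Il7r had 15.9, 17.9 and 12.3 CPM at its promoter and 41.0, 34.3 and 31.0 CPM at a peak in intron 1, 0.898 kb downstream. Per kilobase these were 25.9 and 33.1 CPM per kb.

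Cd4 and Bach2 were open downstream of their listed starts. At the higher Cd4 promoter peak the 3 libraries had 4, 6 and 13 reads (2.45, 4.67 and 8.38 CPM). Another promoter peak, which adjoined it, had 6, 3 and 6 reads (3.67, 2.34 and 3.87 CPM). A peak in a 5′ untranslated exon 1.63 kb downstream had 47.1, 55.3 and 34.8 CPM (45.7 ± 10.3). That was 28.0 CPM per kb, against 15.9 and 8.33 at the promoter peaks. Bach2 had no peak annotated as promoter. Its highest peak, in a 5′ untranslated exon 5.99 kb from the listed start, had 61.2, 67.0 and 59.3 CPM (62.5 ± 3.98), and 17 of its 43 peaks had at most 3 reads in each library.

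**Figure D3:**
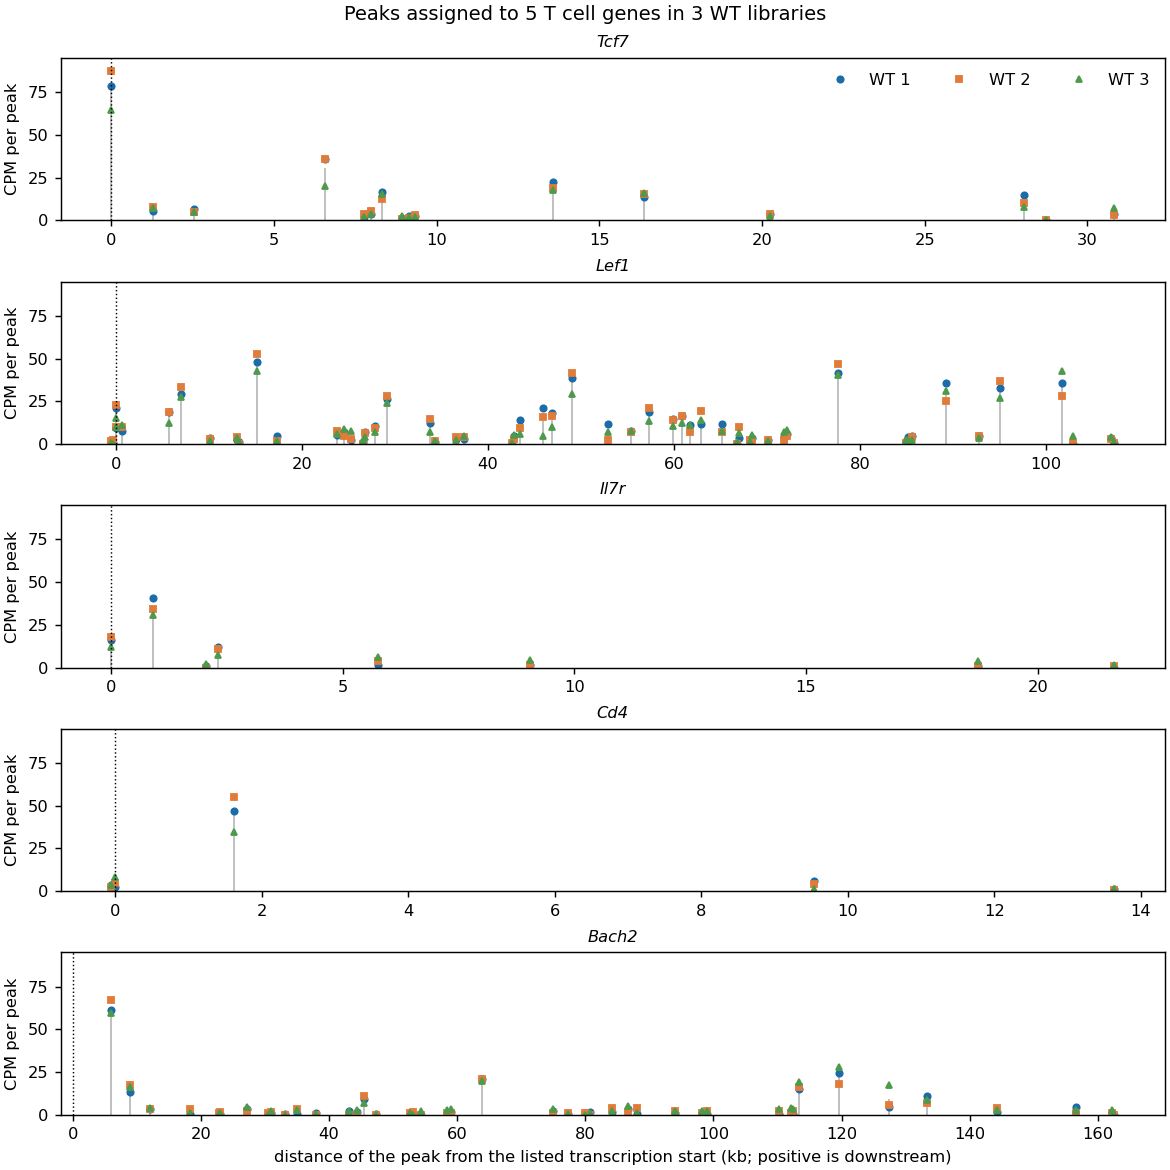
CPM of every peak the table assigns to Tcf7, Lef1, Il7r, Cd4 and Bach2 (vertical) against its distance from the listed transcription start in kb (horizontal), 1 symbol per WT library with grey lines to the mean. The highest peak lies at the start in Tcf7 (76.9 CPM) and downstream in the other 4 genes.

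Promoter levels of gene lists were set against all 12801 genes with a promoter peak, whose median was 25.3 CPM and whose quartiles were 16.6 and 34.9 CPM. Of 24 factors of the naive and quiescent state, 22 had a promoter peak, and 12 of these lay above the upper quartile. Their median was 50.3 CPM, and their median log2(CPM + 1) lay 0.90 ± 0.07 above that of all genes. Satb1, a chromatin organiser of T cells, led with 90.6, 95.8 and 94.2 CPM (93.5 ± 2.66). Fli1, an ETS factor, had 83.8 CPM, the antiproliferative gene Btg2 83.6 and Foxp1 81.9. The lowest of the 22 were Bcl11b (16.1 CPM), Gata3 (18.1) and Ets1 (19.4), and in 7 of the 22 the highest peak lay elsewhere in the gene. On the scale of log2(CPM per kb + 1) the list lay only 0.25 ± 0.03 above all genes.

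Genes of the T cell receptor and its signalling had ordinary promoter levels. All 24 had a promoter peak, with 7 above the upper and 4 below the lower quartile, a median of 24.6 CPM and a difference of -0.02 ± 0.08 log2 from all genes. Cd247, which encodes the zeta chain, had 67.7 CPM, Thy1 62.5 and the kinase gene Fyn 56.0. Cd3e had 22.6, 31.1 and 27.1 CPM, Cd3g 17.6 and Cd3d 17.0. In 9 of the 24 the highest peak was not the promoter. Per kilobase the list lay 0.23 ± 0.02 above all genes.

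Of 15 homing and adhesion genes, 14 had a promoter peak, with a median of 29.9 CPM. The chemokine receptor gene Cxcr4 had 56.4 CPM and the integrin gene Itgb1 53.6. S1pr1, the receptor by which lymphocytes leave lymph nodes, had 40.8 CPM at the promoter and 66.2 CPM at its gene end. Ccr7, the receptor by which they enter, had 20.8, 21.0 and 19.3 CPM. All 29 genes of cytokine receptors and JAK-STAT signalling had a promoter peak (median 27.5 CPM). The highest were the receptor gene Tgfbr2 (84.3 CPM) and the kinase gene Jak2 (74.4), followed by Stat6 with 83.8, 71.6 and 56.7 CPM (70.7 ± 13.6). The lowest were Il21r (14.5), Il7r (15.4) and Il2ra (18.8), and Il21r had 43.6 CPM at a 5′ untranslated exon 3.79 kb downstream.

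Genes of activated cells were open at their promoters in these resting cells. Of 25 activation and immediate early genes, 24 had a promoter peak and 12 lay above the upper quartile (median 33.3 CPM, 0.35 ± 0.09 log2 above all genes). Jun had 102, 85.6 and 70.9 CPM, and Dusp5, a MAP kinase phosphatase gene, 58.3. Irf4 had 56.9, 54.5 and 61.9 CPM. Egr2 had 48.4 CPM, Egr1 46.5 and Fos 42.3, while Egr3 (14.4), Tnf (15.9) and Fosb (16.0) were lowest. Il2, the first growth factor of activated T cells, had 17.1, 18.7 and 22.6 CPM. Per kilobase the list lay 0.05 ± 0.08 above all genes, less than the spread between libraries.

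Genes of the helper cell fates differed widely in level. Among the master regulators, Tbx21 (Th1) had 35.5, 36.6 and 45.8 CPM at its promoter, Gata3 (Th2) 22.0, 14.8 and 17.4, and Bcl6 (follicular helper) 41.0, 35.0 and 34.8. Foxp3 (regulatory T cells) had no promoter peak, and its highest peak, in coding exon 4, had 11.6, 12.5 and 14.8 CPM. The Th1 list (9 promoters, median 16.3 CPM) lay -0.61 ± 0.24 log2 from all genes and the Th17 list (6, 17.5 CPM) -1.30 ± 0.36. The follicular helper list (9, 25.5 CPM) lay 0.11 ± 0.21 and the Th2 list (5, 31.8 CPM) 0.27 ± 0.19 from all genes. That Th2 median was the level of 1 promoter, that of Rad50. Il4, Il5, Il13, Il1rl1 and Ptgdr2, also on the Th2 list, had no promoter peak and did not enter it. The regulatory T cell list (6, 18.9 CPM) lay -0.29 ± 0.04 from all genes by CPM but 0.0018 ± 0.10 per kilobase. Per kilobase the Th1 list lay -0.08 ± 0.22 from all genes, less than the spread between libraries. By the same measure the Th17 list lay -0.62 ± 0.38, the Th2 list 0.20 ± 0.14 and the follicular helper list 0.23 ± 0.10 from all genes. The highest of these promoters were those of Tox (83.2 CPM), Maf (60.1), Rora (55.1) and Ahr (49.4). Il1r1 (1.31), Cd40lg (1.83), Ccr6 (2.14) and Il12rb1 (4.78) were among the lowest. Of the cytokine genes, Il4, Il5, Il13, Il17a, Il17f and Il22 had no listed peak. Ifng had 6.12, 10.1 and 8.38 CPM at the promoter. Il21 had 1, 0 and 0 reads, where a count of 0 allows 2.34 CPM in WT 2.

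The promoters of the memory and effector list lay low. Of 16 genes 12 had a promoter peak and 8 of those lay below the lower quartile (medians 11.6, 9.73 and 9.35 CPM in the 3 libraries, -1.26 ± 0.13 log2). The chemokine genes Ccl3 (2.21 CPM), Ccl5 (3.39) and Ccl4 (6.48) and the granzyme genes Gzmb (7.97) and Gzma (14.1) were among them. Prf1, the perforin gene, had 32.4, 35.8 and 25.8 CPM. Eomes had 6.22 CPM at the promoter and 31.4 CPM at coding exon 1, 0.168 kb away. Per kilobase the list lay -0.46 ± 0.16 from all genes.

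Among markers of other cells the isolation could retain, the B cell and NK cell lists lay low. The myeloid and CD8 genes that had a promoter peak had medians near that of all genes by CPM. All 10 B cell genes had a promoter peak below the lower quartile, with a median of 2.08 CPM (-3.03 ± 0.55 log2, and -1.60 ± 0.87 per kilobase). Cd79a, printed above, had 2, 1 and 4 reads. Summed over the 10 promoters, the level was 36.1, 39.7 and 63.2 CPM, highest in WT 3. Ms4a1, which encodes CD20, had 4, 7 and 21 reads. Of 6 NK cell genes only 2 had a promoter peak (-2.36 ± 0.46 log2, and -1.31 ± 0.58 per kilobase). Ncr1 had 1, 1 and 3 reads there and Klrd1 18, 13 and 23. The 2 NK promoters together had 11.6, 10.9 and 16.8 CPM, most of it from Klrd1. The part of B or NK cells in the values of WT 3 was not tested. Of 14 myeloid genes, 6 had a promoter peak (median 26.8 CPM, 0.04 ± 0.14 log2 from all genes). Lyz2, Adgre1, Elane, S100a8, S100a9 and Csf3r had no listed peak, and Csf1r and Mpo had none at the promoter. Spi1, which encodes PU.1, had 2, 2 and 0 reads, whereas Cebpb had 63.5 CPM, Cd14 39.4 and Cebpa 32.3. In the CD8 list (2 promoters, -0.03 ± 0.07 log2, and 0.38 ± 0.07 per kilobase), Cd8b1 had 39.2, 40.5 and 34.8 CPM at its promoter and Cd8a had 1 listed peak and none at its promoter.

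Of 24 genes of other tissues 5 had a promoter peak, with a median of 6.60 CPM, and 10 had no listed peak, among them Alb and Ins2. Cdh1, which encodes E-cadherin, had 28.5 CPM. Of 11 erythroid and platelet genes 3 had a promoter peak, and Gp9 had 0, 1 and 0 reads. The 8 lowest promoters of all the lists were Il21 (0.204 CPM), Gp9 (0.260), Cdx2 (0.408), Spi1 (0.927), Ncr1 (1.11), Cd79b (1.12), Il1r1 (1.31) and Fcer2a (1.42). Their means lay under 1.84 CPM, the lowest of the 3-read limits, so they were not ordered among themselves. Ubiquitously expressed genes were a reference: 23 of 25 had a promoter peak, 8 of them above the upper quartile and 4 below the lower, with a median of 27.7 CPM. Gapdh had 36.1, 45.2 and 32.9 CPM and Actb 28.8, 20.2 and 18.1.

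**Figure D4:**
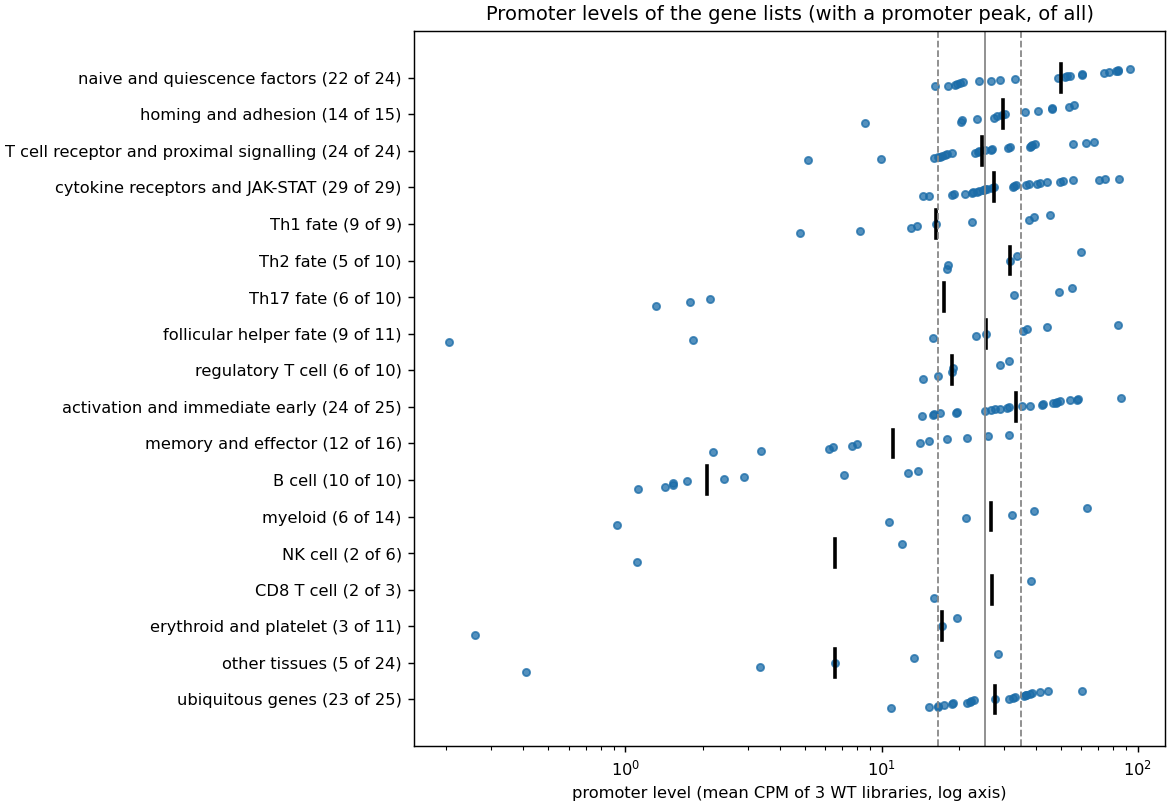
Mean promoter CPM over the 3 WT libraries (horizontal, log axis) for every gene with a promoter peak in 18 lists (vertical), 1 point per gene with a black bar at the list's median; grey lines are the median (25.3 CPM, solid) and quartiles (16.6 and 34.9, dashed) of 12801 genes. The B cell list (median 2.08 CPM) lies left of the lower quartile, and the naive and quiescence list has a median of 50.3 CPM.

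Summed over all peaks the table assigns to a gene, Foxp1 was first of 16126 genes with 1573, 1499 and 1600 CPM in 181 peaks (1557 ± 52.4). Its promoter held 5.26% of that sum. Inpp4b, a phosphoinositide phosphatase gene, had 833 ± 59.4 CPM in 156 peaks, and Arid1b, a subunit of the BAF chromatin remodeller, 776 ± 15.6 in 91. Wwox (761), Akap13 (725), Sgms1 (719), Prkch (684) and Arhgef3 (597) followed, then Lef1 (583 ± 41.4), Rere (573), Prkce (569) and Zmiz1 (565). Sums rose with the number of peaks (Spearman's rho 0.644 across genes). None of the 12 led per kilobase: Lef1, with 21.8 CPM per kb, came closest at rank 3451, and Foxp1 had 17.1. When intergenic peaks were added to the gene of the nearest start, Foxp1 stayed first (1676 CPM) and Bach2 came second with 1184 CPM in 121 peaks. Of 9033 genes with a promoter peak and further peaks, 1894 (21.0%) had their highest peak outside the promoter.

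The composition of the promoter sequence changed with its level. RefSeq windows of 300 bases, 250 before and 50 after the start, were matched by symbol to 9993 of the 12801 genes, and 7558 protein-coding genes with 1 window were used. The median ratio of observed to expected CpG was 0.489 in the lowest decile by CPM, 0.766 over all and 0.846 in the highest decile. In 5370 protein-coding genes without a listed peak it was 0.186. These are genes whose symbol matched that of no peak. A start covered by a peak listed under another gene or an unmatched symbol therefore counts among them. The ratio exceeded 0.6 in 84.6% of the highest decile, 40.9% of the lowest decile and 14.2% of genes without a peak. Ranked per kilobase, the medians were 0.775 in the highest and 0.515 in the lowest decile.

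Motif matches did not all follow the level. The GC box (GGGCGG, bound by SP and KLF factors) was in 77.0% of windows of the highest decile, 51.7% of the lowest and 17.1% of those without a peak, against 45.3% of all 14731 windows. The ETS motif (CCGGAAG) was most frequent in the middle: it was in 26.0% of the sixth decile, 12.6% of the highest and 5.43% of the lowest, against 11.8% of all windows. The YY1 motif (AAGATGGC) reached 7.80% in the fourth decile, against 3.05% in the highest, 1.59% in the lowest and 3.35% of all. The CCAAT box (CCAAT) was in 44.8% of the fourth decile, 32.7% of the highest and 33.1% of the lowest, against 39.6% of all. The TATA box (TATAAA) was in 6.75% of the highest decile and 25.3% of windows without a peak, against 14.3% of all.

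Motifs of factors active in T cells differed in frequency at these starts. Over genes with a promoter peak, the ETS motif was in 17.7% and the GC box in 66.4% of windows. Matches to AP-1, RUNX, TCF/LEF, forkhead and STAT were rarer there, from 2.29% (TCF/LEF) to 6.62% (STAT). AP-1 (TGANTCA) was in 2.65% of the highest decile, 6.89% of the lowest and 7.09% of all windows. RUNX (AACCACA) was in 3.05%, 3.97% and 4.98%, TCF/LEF (ATCAAAG) in 1.85%, 1.46% and 3.29%, and forkhead (TGTTTAC) in 2.78%, 3.05% and 3.03% of the same 3 sets. STAT (TTCNNNGAA) was in 4.50%, 6.49% and 7.86%, and the STAT6 form, with 1 more base between its TTC and GAA, in 2.91%, 4.64% and 6.48%. The E-box (CACGTG) was in 9.67%, 8.34% and 7.72%, CRE (TGACGTCA) in 3.31%, 1.99% and 2.29%, and NRF1 in 1.72%, 1.06% and 1.29%. Both strands were searched, matches of different motifs may overlap, and a match is a description of the letters. Base composition differed between the sets, with a median GC of 67.7% in the highest decile, 58.7% in the lowest and 46.3% without a peak. The highest distal peaks could not be searched, since the windows cover starts only.

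**Figure D5:**
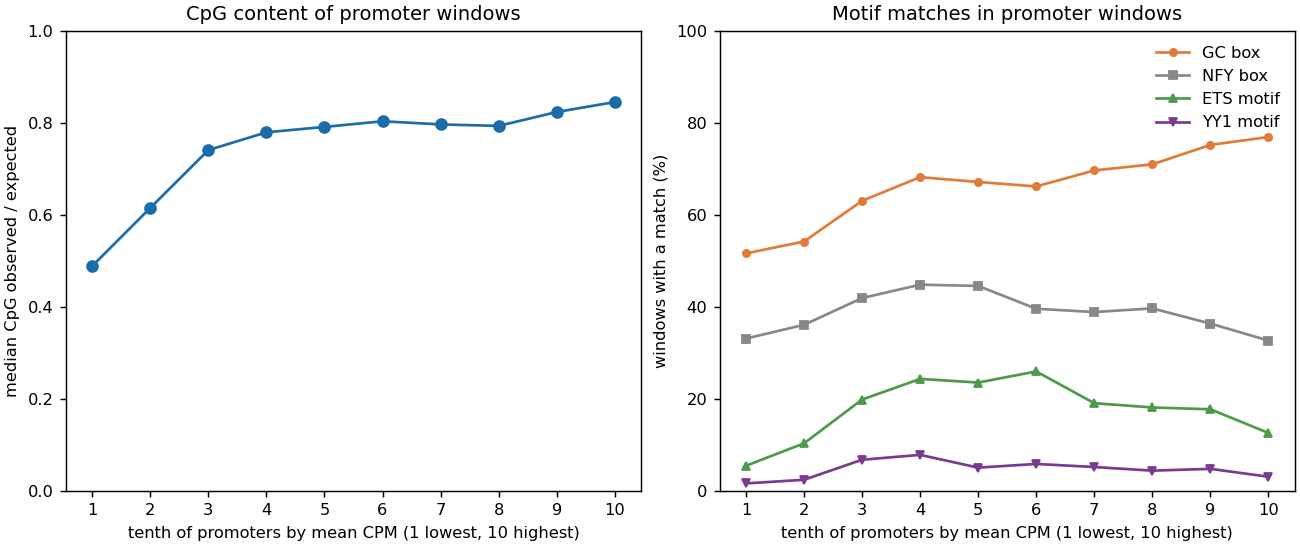
Left, median ratio of observed to expected CpG in promoter windows by decile of promoter level (1 lowest, 10 highest). Right, percent of windows with a match to 4 motifs. CpG rises from 0.489 to 0.846, the GC box from 51.7% to 77.0%, and the ETS motif is highest in the sixth decile (26.0%).

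The 3 libraries were alike in the ranking of peaks. The correlation of log2(CPM + 1) over the 115727 peaks was 0.918 for WT 1 and WT 2, 0.916 for WT 1 and WT 3 and 0.902 for WT 2 and WT 3, and over promoters it was 0.961, 0.956 and 0.951. These are correlations across peaks, which are not replicates. The median absolute difference between 2 libraries was 0.328, 0.400 and 0.406 on that log2 scale. Of the 1000 peaks with the highest mean, 849, 834 and 793 were among the first 1000 of WT 1, WT 2 and WT 3.

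A few peaks stood apart in 1 library. Between 53659012 and 53963955 on mm9 chromosome 14, in the region of the Trav gene segments, which are joined when the receptor alpha chain is assembled, 23 neighbouring peaks chosen for at most 3 reads in WT 1 held 8 reads in WT 1, 308 in WT 2 and 289 in WT 3. The 28 other listed peaks between 53056213 and 53971324 held 243, 202 and 280 reads. Over the genome, 3 peaks had at most 3 reads in WT 1 and at least 20 in each of the other 2 libraries, all 3 in that run, and the same count was 0 for WT 2 and 0 for WT 3. Of the 8 peaks with the largest chi-square between the libraries, the 5 outside that run were lowest in WT 3. The promoter of Ywhaz, which encodes a 14-3-3 protein, had 63.6, 48.3 and 21.3 CPM, and that of Stim1, the calcium sensor of store-operated entry, had 64.2, 59.9 and 27.7. The gene end of Tnfaip3, an inhibitor of NF-kB, had 51.4, 52.2 and 14.2 CPM, and coding exon 7 of Cdk5rap1 had 28.1, 21.8 and 3.22. The means given for these genes rest on libraries that disagree.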

How the data were processed

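The authors deposited 1 table of CPM values for 115727 peaks on mm9, shared by 9 libraries. Per the submitters' processing notes the tools were HOMER, MACS2 2.0 and Bowtie 1.3.0; their roles and how peaks were merged are not given in the sources used here. Every deposited CPM value of the 3 WT libraries was a whole multiple of the library's smallest value, within 0.01 read, and that step was taken as 1 read. The deposited headers of the gene columns are shifted, so these columns were read by content. Peak class, width and distance are the deposited ones; a promoter is a peak annotated TSS, and a gene's promoter is its highest such peak. Intergenic peaks were given the nearest listed start.

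Levels were averaged over WT 1, WT 2 and WT 3, with SD over the 3 (pandas 2.3.3, numpy 2.4.6, scipy 1.17.1, Python 3.11.15), and log2 values use a pseudocount of 1. No test was run, since there is 1 group, and no peak was filtered. The code for read recovery and ranking was run on simulated data: all 200 raised intergenic peaks among 115727 were found in the first 1000. Their level was set far above the 52.6 CPM of the 1000th real peak. That outcome was therefore fixed in advance and checks only that the code runs as written. How recovery depends on the level given to the raised peaks was not tested. Whether the smallest step of the deposited values is 1 read was not tested either. The members and the 18 gene lists were chosen with earlier results of these data known. Named were the 5 markers, the 12 highest promoters, distal peaks and genes, the 5 highest of both kinds of peak per kb, list genes, and peaks differing most between libraries; unnamed gene models were counted only, and a few named items are not reported here. Alternatives changed the promoter definition, filter, scaling, width correction, pseudocount and libraries used.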

Additional observations from a re-analysis of the deposited data

How the results depend on the processing

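Per kilobase of peak width, the promoter to intergenic ratio was 2.50, promoters were 37.2% of the 1000 most open peaks, and the most open decile held 36.6% of reads. Also per kilobase, the CpG ratio of the highest minus the lowest decile of promoters was 0.26 instead of 0.356, and 0 of the 12 highest promoters, 0 of the 12 highest distal peaks and 0 of the 12 highest genes stayed among the 12. The median of the regulatory T cell list turned from -0.29 to 0.0018 and that of the ubiquitous genes from 0.07 to -0.12. Another 11 of the 18 lists moved by at least the spread between libraries, and 5 did not. The T cell receptor list went from -0.02 to 0.23 and the CD8 list from -0.03 to 0.38, both from values within that spread. With only peaks of at least 10 reads in every WT library, the promoter share of reads was 42.3%, the ratio 1.75, the share of the most open decile 22.4% and the median difference between libraries 0.23. That filter removed 79197 peaks (68.4%), with a median width of 337 bp and 4.12% promoters, and kept 36530 with a median of 866 bp and 31.1% promoters. The median difference between libraries was 0.465 with a pseudocount of 0.25 and 0.20 with 5. Of the 12 genes, 1 stayed when genes were ranked by their highest peak, 1 by the promoter alone, and 6 with intergenic peaks added.

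Leaving out 1 library gave 33.9% to 36.0% for the promoter share, 6.50 to 7.75 for the ratio, 1.02 to 1.07 for the ratio at 1000 to 1500 bp, 73.0% to 76.3% for promoters in the first 1000 and 41.1% to 43.2% for the most open decile. It gave 0.328 to 0.406 for the difference between libraries, 0.357 to 0.366 for the CpG difference, and kept 9 to 10 promoters, 9 to 10 distal peaks and 11 to 12 genes of each 12. The number of lists above the median of all genes was 7 to 9 instead of 8. Leaving 1 of 3 libraries out cannot move a mean of the 3 by more than its SD, so for the promoter share and the ratios this says little about stability. The other measures were computed or ranked anew from the remaining libraries and are not bound in this way. Of 42 named peaks, 1, 1 and 3 moved in rank by more than the spread without WT 1, WT 2 and WT 3. Averaging WT 1 and WT 2 as 1 sample, chosen after seeing the data, gave 34.1%, 6.91, 73.6% and 41.1% for the same first measures, and the matched-width ratio, added likewise, was then 1.02. Defining promoters by a distance of 1 kb and leaving out X and Y moved none of the shares and ratios they were tried on by more than the spread between libraries. Size factors scale a whole library, so they cannot change a share of reads within it. With them promoters were 74.4% of the first 1000, and 11 of the 12 highest promoters and 11 of the 12 distal peaks were kept.

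No paired analysis was possible because only the WT libraries were used and no groups were compared. Depth limits single low peaks: 29.9% had at most 3 reads in each library.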

Other observations

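Promoter levels were alike across chromosomes. The median promoter peak had 24.2 CPM on chromosome X (439 promoter peaks), and the autosomes ranged from 21.1 CPM on chromosome 7 to 25.2 on chromosome 16. Chromosome Y had 56 peaks, 4 of them promoters. Intron and intergenic peaks had a median of 3.24 CPM on X, above the autosomes, of which chromosome 9 was highest with 3.11. The 5 peaks of the mitochondrial genome held 9, 8 and 4 reads in WT 1, WT 2 and WT 3.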
